A study of Mus musculus with 3 samples.

Results

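The genes described here are 8 genes that make, store, carry or export cholesterol or desaturate fatty acids, chosen by symbol from the 26124 genes measured in each of 3 mouse single-cell RNA libraries: Hmgcs1, Sqle, Soat1, Scd1, Apoe, Apoc1, Abca1 and Abcg1. All 8 were found once in each library. The question was how the supply of cholesterol in Leydig cells compares with the apolipoprotein and efflux genes of macrophages. 1 library, here called KO testis, holds testicular cells of 1 adult Tsc22d3 knockout mouse of the goGermline line, a host that the series calls sterile. A second, KO cauda, holds material drawn by needle from the sperm-storing tail of the epididymis (the cauda) of a Tsc22d3 knockout of that line. The last, chimera cauda, was drawn in the same way from a Tsc22d3 knockout embryo host given mouse induced pluripotent stem cells (a chimera), labelled Pax7-nGFP iPS x goGermline. Ages beyond the word adult for the testis donor are not given in the sources used here. All 3 groups therefore carry the knockout in the host, and any somatic cell type of a chimera can come from host or donor. Each group is 1 library with no replicate. The spread between animals is unknown, so no p-value is given, and every interval below covers counting error alone.

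Cells build cholesterol from acetyl-CoA through the mevalonate pathway or take it up from lipoproteins. Leydig cells, the androgen-making cells between the seminiferous tubules, turn cholesterol into testosterone, and their side-chain cleavage enzyme in the mitochondria takes the first step. Macrophages clear dying cells and lipoproteins, cannot break down the sterol ring, and pass cholesterol to apolipoproteins through membrane transporters. Synthesis genes are switched on by the SREBP factors when membrane sterol is low, and efflux genes by the oxysterol receptors LXR when it is high.

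The measure was the count of unique molecular identifiers (UMIs), 1 per captured transcript molecule, from 3′ single-cell libraries. A class is the set of barcodes whose UMIs passed a gate on its marker genes and on no other class's, and its level is CPM, the UMIs of a gene per 1000000 UMIs summed over the class. The libraries held 134795047 UMIs in 18108 barcodes (KO testis), 41862286 in 3937 (KO cauda) and 5395856 in 214502 barcodes with at least 1 UMI (chimera cauda), of which 222 reached 500. Barcodes with at least 500 UMIs and at most 20% mitochondrially encoded UMIs numbered 13677, 3528 and 201. Markers of more than 1 class put 7.35%, 33.4% and 4.98% of these in no class, in the KO cauda mostly 759 barcodes with B lymphocyte and 331 with macrophage markers beside epididymal ones. A further 19.5%, 2.69% and 12.4% passed no gate and were left out too. Classes of 20 barcodes or more gave 15 class sums, and a count of 0 allowed up to 3 UMIs. The labels call the KO cauda cells epididymal and the chimera cells spermatids and spermatozoa. By their markers, the KO cauda held mainly 1134 B lymphocyte-like and 703 macrophage-like barcodes, and 28 chimera barcodes were spermatid or sperm-like. The 345 KO cauda barcodes past the epididymal gate had a median of 2031 UMIs, and all 7 gate markers were detected in their sum. None of these markers was among their 10 leading genes, which began with Pate1, Abcb5 and Pax8. The same held for the gate markers of testis macrophage-like, testis endothelial-like and chimera macrophage-like barcodes, so it does not set the 345 apart. They are left here without a cell type name, and their identity was not tested. Tsc22d3, the targeted gene, stood at 6.05 CPM in the KO testis and at 10.8 (KO) and 22.8 CPM (chimera) in the cauda libraries. Where the deleted part lies relative to the counted 3′ end is not given in the sources used here, so these levels do not check the genotype.

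The cauda libraries shared cell barcodes. Of the 3937 KO cauda barcodes, 3936 also held UMIs in the chimera library. Of the 222 chimera barcodes with 500 UMIs or more, 125 were KO cauda barcodes, and 121 of these were deeper in the chimera, with a median of 21005 UMIs there against 3684 for the same barcodes in the KO cauda. The other 3811 shared barcodes had a median depth of 84 UMIs (chimera) and 9238 UMIs (KO cauda). Of the chimera macrophage-like barcodes 63 of 67 were shared, and of its B lymphocyte-like barcodes 49 of 50, against 2 of 28 sperm-like ones. The KO testis shared 14 barcodes with the KO cauda file and 0 with the 222 chimera barcodes. Without the shared barcodes the chimera keeps 4 macrophage-like and 1 B lymphocyte-like barcodes, too few for a level. Every comparison of chimera with KO cauda classes below therefore rests on shared barcodes, and KO cauda levels or calls without the 125 are given beside each comparison of the cauda libraries. The comparison of whole libraries also counts chimera barcodes that are not in the KO cauda file.

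Hmgcs1 and Sqle stand for synthesis. Hmgcs1 (ENSMUSG00000093930, chr13:119690379-119708260, plus strand, GRCm38) encodes the cytosolic HMG-CoA synthase that precedes the rate-limiting reductase. In the Leydig-like class of 3814 barcodes it reached 991 CPM (95% interval 983 to 1000), and 94.4% of barcodes held a UMI. The next class was Sertoli-like, the nurse cells of the tubule, at 191 CPM (181 to 201). Early germ-like (103 CPM), contractile mural-like (93.9 CPM), fibroblast-like (88.6 CPM) and the unnamed cauda barcodes (76.5 CPM) followed with overlapping intervals. The lowest nonzero levels were in the KO cauda, at 11.04 CPM in B lymphocyte-like and 10.2 CPM in macrophage-like barcodes. Between single Leydig-like barcodes the level ran from 207 CPM at the 10th percentile through a median of 798 to 1904 at the 90th.

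The 250 bases before the RefSeq start of Hmgcs1 are shown because they hold, in capitals, the motif TCACNCCAC of the sterol regulatory element 137 bases before the start, with 3 CCAAT boxes (CCAAT, here on the opposite strand) and 2 GC boxes (GGGCGG, on either strand). The window is chr13:119690101-119690350 on GRCm38.p6, plus strand, 5′ to 3′, from RefSeq.
Hmgcs1 promoter: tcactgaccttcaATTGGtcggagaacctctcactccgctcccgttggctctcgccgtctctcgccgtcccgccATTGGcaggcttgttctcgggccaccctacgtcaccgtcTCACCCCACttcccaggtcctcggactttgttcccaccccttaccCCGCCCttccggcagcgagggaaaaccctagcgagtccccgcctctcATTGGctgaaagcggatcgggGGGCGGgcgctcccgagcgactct
Among 32851 mouse promoter windows of this length, 1.05% held the sterol element on either strand, 33.8% a CCAAT box and 32.7% a GC box. A match describes the letters and does not show that a factor binds there. The reference table held windows for 4 of the 8 genes, Hmgcs1, Soat1, Apoe and Abca1.

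Sqle (ENSMUSG00000022351, chr15:59315077-59331192, plus strand) encodes squalene epoxidase, which adds oxygen to squalene, the first oxygenation step of sterol synthesis. It followed Hmgcs1 in its top class, with 220 CPM (216 to 224) in Leydig-like barcodes, and early germ-like barcodes came next at 53.9 CPM (42.6 to 67.4). The unnamed cauda barcodes stood at 42.8 CPM (32.0 to 56.1), which overlaps the germ-like interval. Cauda macrophage-like barcodes held 14 Sqle UMIs (1.01 CPM) in the KO and 2 (1.10 CPM) in the chimera. Across the 15 class sums, Hmgcs1 and Sqle correlated at r = 0.56 on the log2(CPM + 1) scale, as a description of sums that share libraries and free RNA. Hmgcs1 correlated more with Abca1 (0.79), Soat1 (0.76) and Apoc1 (0.74), so the synthesis genes did not form a pattern of their own.

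Soat1 and Scd1 act on storage. Soat1 (ENSMUSG00000026600, chr1:156424525-156474331, minus strand) encodes the acyltransferase that esterifies cholesterol for lipid droplets. Its leading classes were those of Hmgcs1, Leydig-like and then Sertoli-like, whereas Sqle stood at 11.6 CPM in Sertoli-like barcodes. For Soat1, Leydig-like barcodes held 370 CPM (365 to 375), Sertoli-like ones 330 CPM (317 to 343), and testis macrophage-like ones 161 CPM (154 to 168). The chimera macrophage-like level of 141 CPM (125 to 160) overlapped that of the testis, and the KO cauda level of 98.2 CPM (93.0 to 104) lay below both. Fibroblast-like barcodes held 81.2 CPM (73.5 to 89.4). From contractile mural-like barcodes at 57.5 CPM down to the unnamed cauda barcodes at 23.0 CPM, each level overlapped the next.

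Scd1 (ENSMUSG00000037071, chr19:44394455-44407879, minus strand) encodes the desaturase that makes the oleate used in sterol esters. Its highest level lay outside the steroidogenic cells. KO cauda B lymphocyte-like barcodes held 496 CPM (484 to 509) and chimera ones 341 CPM (303 to 383), followed by Leydig-like barcodes at 232 CPM (228 to 236). In the KO cauda B class 95.1% of barcodes held a Scd1 UMI (93.6 to 96.2%), and with every barcode thinned to 1000 UMIs 37.1% did. In the macrophage-like barcodes of that library the thinned share was 1.30%. B barcodes with more UMIs of Cd5, Zbtb32 and Bhlhe41, genes of B-1 cells, stood at 499.4 CPM (764 barcodes) and those with more of Fcer2a, Cr2 and Ighd, genes of follicular B cells, at 461 CPM (226 barcodes). Their intervals, 485 to 514 and 431 to 493, overlap. Without the shared barcodes the KO cauda B level was 497 CPM.

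Apoe and Apoc1, neighbours on chromosome 7, encode apolipoproteins of triglyceride-rich and high-density particles. Apoe (ENSMUSG00000002985, chr7:19696109-19699188, minus strand), a ligand for the uptake of lipoprotein remnants, was highest in the macrophage-like classes. Testis macrophage-like barcodes held 39549.5 CPM (39439 to 39660), KO cauda ones 16196 CPM (16129 to 16263) and chimera ones 10264 CPM (10117.5 to 10412.5). No other class reached the lowest of these. Fibroblast-like barcodes of the testis came next at 8071 CPM (7993 to 8149), and Leydig-like ones held 2183 CPM (2171 to 2196).

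Free RNA is present in droplet libraries, so these lower levels were read against the macrophage markers in the same barcodes. The 5 markers compared were C1qa, C1qb and C1qc, which are in the macrophage gate, and Lyz2 and Pf4, which are not. Barcodes of other classes had to fail that gate, so low shares of its genes are partly fixed by selection. In fibroblast-like barcodes the 5 stood at 0.305 to 0.444% of their macrophage-like level (Lyz2 0.440%, Pf4 0.444%), and Apoe at 20.4% of its own. In Leydig-like barcodes the markers stood at 0.162 to 0.193% and Apoe at 5.52%. In Sertoli-like barcodes the markers stood at 0.146 to 0.201% and Apoe at 0.596%. Apoe lay above the marker range in all 3 of these classes, by least in the Sertoli-like one. Classes other than macrophages can also feed free Apoe RNA, and a pool of mixed source was not tested. In spermatid or sperm-like barcodes Apoe held 52 UMIs (1480 CPM, 1105 to 1941), Sqle 1 UMI and the other 6 genes 0, each of which allows up to 85.4 CPM. There the macrophage markers stood at 0 to 7.41% of their chimera macrophage-like level and Apoe at 14.4%. Chimera barcodes of 1 to 19 UMIs held 10978 CPM of Apoe, and the source of Apoe in the sperm-like barcodes was not tested.

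Apoc1 (ENSMUSG00000040564, chr7:19689481-19692660, minus strand), which slows lipoprotein clearance, did not share the order of its neighbour. Leydig-like barcodes held 2306 CPM (2293 to 2318) and every other class 361 CPM or less. The erythroid-like value of 361 CPM rests on 35 UMIs (251 to 502), and in those barcodes Leydig markers stood at 9.85 to 14.6% of their Leydig-like level against 15.6% for Apoc1. Between single Leydig-like barcodes Apoc1 ran from 106 CPM at the 10th percentile through a median of 1331 to 5793 at the 90th. The 382 Leydig-like barcodes with most Apoc1 UMIs held 42.1% of all Apoc1 UMIs of the class. The share of the 382 highest barcodes ran from 27.5 to 31.2% for the 6 genes other than Apoc1 and the nearly silent Abcg1. Apoc1 in KO cauda macrophage-like barcodes was more uneven, since 71 of 703 barcodes held 93.1% of its 404 UMIs.

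Abca1 and Abcg1 encode the pumps that hand cholesterol to lipid-poor apolipoprotein A-I and to mature high-density particles. Abca1 (ENSMUSG00000015243, chr4:53030787-53159895, minus strand) had its highest level in Leydig-like barcodes, at 796 CPM (789 to 804), ahead of testis macrophage-like ones at 498 CPM (486 to 511) and fibroblast-like ones at 353 CPM (337 to 370). Endothelial-like barcodes followed at 187 CPM (164 to 213). The KO cauda macrophage-like level of 137 CPM (131 to 143) overlapped those of contractile mural-like and Sertoli-like barcodes.

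The window before the Abca1 start is shown beside that of Hmgcs1 because synthesis and efflux lie at opposite ends of sterol control, and among the motifs searched these windows had the GC box alone in common. It spans chr4:53159896-53160145 on GRCm38.p6, minus strand, 5′ to 3′, from RefSeq, with an E-box (CACGTG) 147 bases before the start and 2 GC boxes (GGGCGG) in capitals.
Abca1 promoter: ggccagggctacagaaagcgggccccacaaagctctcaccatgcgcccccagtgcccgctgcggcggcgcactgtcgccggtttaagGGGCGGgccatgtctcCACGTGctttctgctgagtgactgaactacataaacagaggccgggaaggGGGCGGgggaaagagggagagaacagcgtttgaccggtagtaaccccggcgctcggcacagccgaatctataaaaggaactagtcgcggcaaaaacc
An E-box was found in 6.02% of the windows. The DR4 repeat, searched only as 2 perfect copies of its consensus half-site, and the extended half-site CAAGGTCA were present in 0.0152% and 1.33% of all windows and not in those of the 4 genes. Imperfect repeats, which LXR also binds, were not searched, so this says nothing of LXR sites in these windows. Soat1 held 1 CCAAT box and the 3 windows of Apoe held none of the 6 strings.

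Abcg1 (ENSMUSG00000024030, chr17:31057675-31117988, plus strand) was nearly absent from the class where Abca1 was highest. The 3814 Leydig-like barcodes held 21 Abcg1 UMIs, 0.373 CPM (0.231 to 0.570). Endothelial-like barcodes held 147 CPM (127 to 170), KO cauda macrophage-like ones 101 CPM (95.8 to 107) and testis macrophage-like ones 59.7 CPM (55.5 to 64.2). The testis macrophage-like level overlapped that of KO cauda B lymphocyte-like barcodes at 54.7 CPM (50.6 to 59.0). Chimera macrophage-like barcodes held 44.5 CPM (35.4 to 55.3), below the testis interval and overlapping that of the KO cauda B lymphocyte-like ones.

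**Figure D1:**
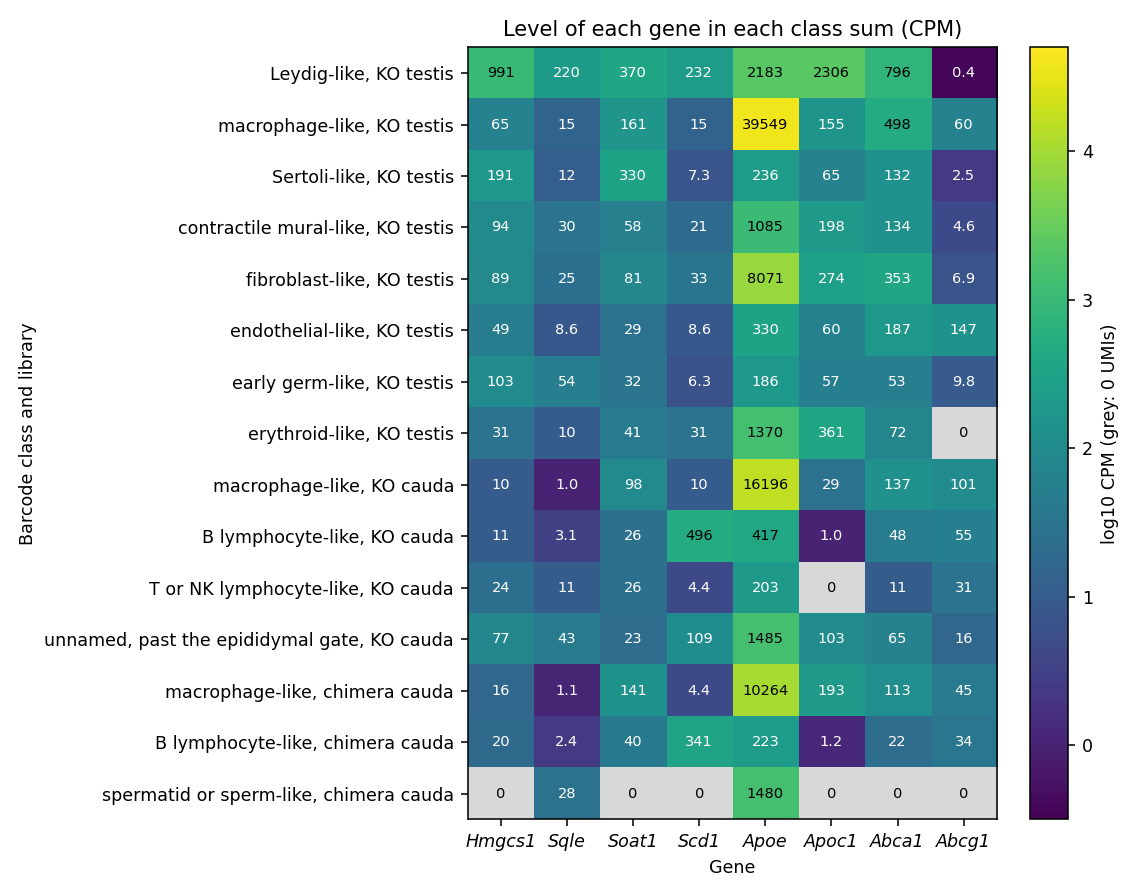
CPM of the 8 genes (columns) in the 15 class sums (rows); the colour is log10 CPM, the printed number is CPM, and grey marks 0 UMIs. The top row, Leydig-like barcodes of the KO testis, is high for 7 genes and 0.4 for Abcg1, whereas Apoe peaks in the macrophage-like rows and Scd1 in the B lymphocyte-like rows.

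In the KO testis, Leydig-like and macrophage-like barcodes of 1 library were compared directly. Hmgcs1 was 15.2-fold higher in Leydig-like barcodes (14.2 to 16.3), Sqle 14.6-fold (12.7 to 17.0), Scd1 15.8-fold (13.7 to 18.4), Apoc1 14.8-fold (14.2 to 15.5) and Soat1 2.30-fold (2.20 to 2.41). Apoe was 18.1-fold higher in macrophage-like barcodes (18.0 to 18.2) and Abcg1 160-fold (104 to 260). Abca1 was 1.599-fold higher in Leydig-like barcodes (1.56 to 1.64), under the 2-fold rule. Counting a gene as called when it was at least 2-fold apart and reached 10 CPM in the higher class, 5 of the 8 were higher in Leydig-like barcodes, where 21.9% of the 9110 genes tested were called, and 2 in macrophage-like ones, where 22.8% were. The neighbouring apolipoprotein genes thus stood on opposite sides, and Abcg1 and Abca1 did so by direction, with Abca1 under the rule.

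The ratios of Hmgcs1, Sqle, Scd1 and Apoc1 lay close together, and Leydig RNA was present in the macrophage-like barcodes. Insl3, Cyp17a1, Hsd3b1, Cyp11a1 and Star, genes of the Leydig programme, stood in testis macrophage-like barcodes at 3.45 to 5.71% of their Leydig-like level. Insl3, Cyp17a1 and Hsd3b1 are in the Leydig gate, which these barcodes had to fail, so their shares are partly fixed by selection. Cyp11a1 and Star, outside the gate, stood at 5.05 and 5.71%. Hmgcs1 stood at 6.56%, Sqle at 6.83%, Scd1 at 6.32% and Apoc1 at 6.74%, just above the range of the 5 genes. Soat1 stood at 43.5% and Abca1 at 62.6%. Taking away the share of the Leydig-like profile that sets Insl3 to 0 left the macrophage-like class with 32.0 CPM of Hmgcs1, 7.70 of Sqle, 6.88 of Scd1 and 78.6 of Apoc1. Setting Star to 0 instead left 8.95, 2.601, 1.48 and 25.1 CPM. Star is not particular to Leydig cells, since Sertoli-like barcodes held it at 20.01% of the Leydig-like level. Both steps lower the macrophage-like levels and so widen the ratios of these 4 genes. Only 52 testis macrophage-like barcodes held no UMI of the 5 genes, and their Hmgcs1 level was 52.1 CPM (26.9 to 91.0), from 12 UMIs.

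**Figure D2:**
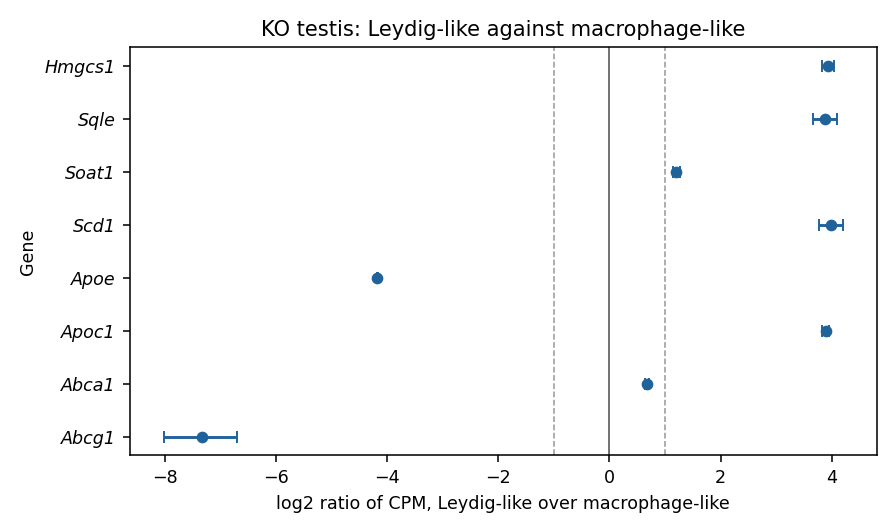
The log2 ratio of CPM, Leydig-like over macrophage-like barcodes of the KO testis, for each gene; bars are 95% intervals for counting error, widest for Abcg1, and dashed lines mark 2-fold. Hmgcs1, Sqle, Scd1 and Apoc1 lie between 3.87 and 3.98, and Apoe and Abcg1 lie at -4.18 and -7.32.

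The 7 lists of sterol and fatty acid genes held 69 genes in all, the 8 described here among them. Of these 62 were tested, 41 were higher in Leydig-like barcodes and 12 in macrophage-like ones. Over all 9110 genes tested 21.9% and 22.8% were called in these directions, and these shares also apply to each list below. The 12 genes lay below the all-gene share. All 20 mevalonate and sterol synthesis genes were higher in Leydig-like barcodes, with a median log2 ratio of 3.48 against 0.04 over all genes tested. Msmo1, a sterol demethylase, stood at 702 against 58.6 CPM, Fdps, which makes farnesyl diphosphate, at 486 against 32.8, and Cyp51, which demethylates lanosterol, at 458 against 33.0. All 8 fatty acid synthesis and desaturation genes were higher in Leydig-like barcodes too, with a median of 3.31. They include Scd2, the sister desaturase of Scd1, at 2045 against 143 CPM, Fads2 at 995 against 57.7, Fads1 at 483 against 69.6, and Acly, which supplies acetyl-CoA, at 327 against 75.4.

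Uptake and release went the other way for most genes. Of 8 tested, 5 were higher in macrophage-like barcodes, where 22.8% of all genes were called. In Leydig-like ones, where 21.9% were called, 2 were higher, among them Scarb1, a receptor for high-density particles. The median of the list was -1.38. Npc2, which lifts cholesterol out of the lysosome, stood at 918 CPM in macrophage-like against 312 in Leydig-like barcodes, the remnant receptor Lrp1 at 341 against 149, and the acid lipase Lipa at 248 against 45.2. The fatty acid receptor Cd36 stood at 122 in macrophage-like and 148 in Leydig-like barcodes and was not called. Of the 4 esterification and storage genes tested, Soat1 was higher in Leydig-like barcodes and Plin2, a droplet coat protein, in macrophage-like ones (46.7 against 151 CPM). Nceh1 (58.1 against 54.0) and Lipe (15.0 against 11.1), both ester hydrolases, were not called, and Soat2 and Lcat stayed under the 10 CPM limit. With 1 of 4 called in each direction, this list cannot be set apart from the shares over all genes.

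Of 7 efflux and lipoprotein genes tested, Apoe, Abcg1, Pltp and Lpl were higher in macrophage-like barcodes and Apoc1 in Leydig-like ones, with a median of -4.18. Apoe, Apoc1, Abca1 and Abcg1, given above, are among these 7, and the median is the ratio of Apoe itself. The list thus repeats their result in large part. Pltp, the phospholipid transfer protein, stood at 5.63 CPM in Leydig-like against 1102 in macrophage-like barcodes, and lipoprotein lipase Lpl at 0.320 against 135. Cyp27a1, which makes an oxysterol, stood at 44.7 against 46.6 CPM, and Apoc4 stayed under the limit. Of 8 regulators tested, 4 were higher in Leydig-like barcodes, among them Srebf2 (91.3 against 31.0 CPM), the master factor of synthesis, with its escort Scap (89.3 against 15.3) and retention partner Insig1 (112 against 43.7). Mylip, a ubiquitin ligase induced by LXR, was higher in macrophage-like barcodes, and Rxra (58.6 against 48.4), the partner of LXR, was not called. Of 7 genes of mitochondrial delivery and side-chain cleavage, 5 were higher in Leydig-like barcodes, with Cyp11a1 at 3799 against 192 CPM, Fdx1 at 2470 against 172 and Star at 705 against 40.3. Stard3, a sterol carrier of late endosomes, was higher in macrophage-like barcodes, at 13.9 against 31.7 CPM. Tspo, of the outer membrane, stood at 303 against 448 CPM and was not called.

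**Figure D3:**
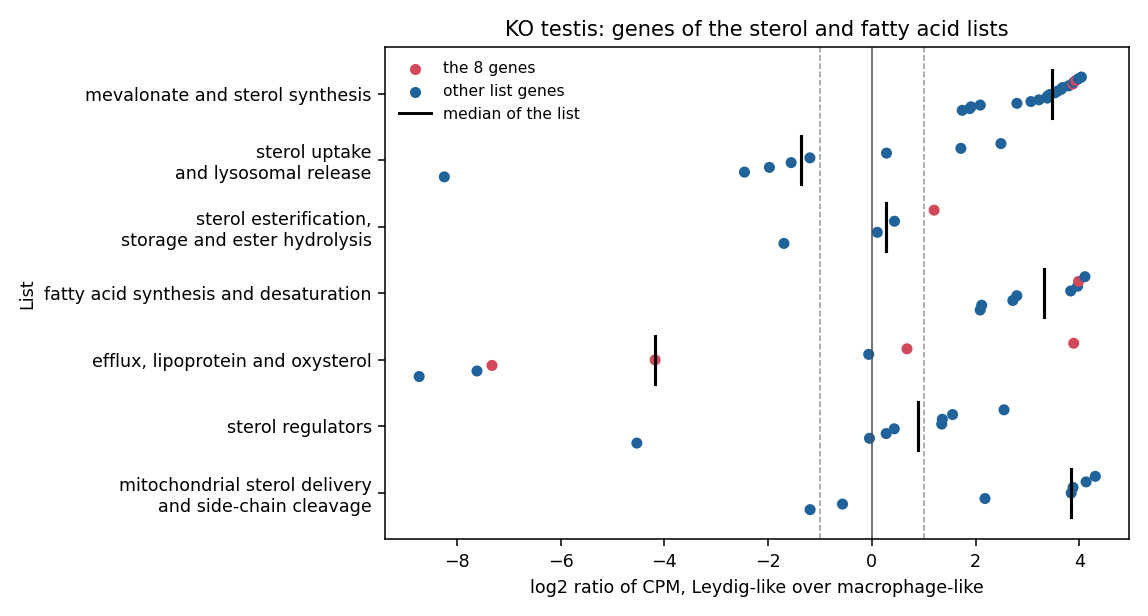
The log2 ratio of CPM, Leydig-like over macrophage-like barcodes of the KO testis, for each tested gene of the 7 lists; red points are genes among the 8 described here, black bars the list medians, dashed lines 2-fold. The synthesis and fatty acid lists lie wholly right of the 2-fold line, and the efflux list spans from -8.73 (Lpl) to 3.89 (Apoc1).

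Between tissues, the macrophage-like barcodes of the KO testis (2189) and KO cauda (703) differed in 5 of the 8 genes. Hmgcs1 stood at 65.1 CPM in the testis and 10.2 in the cauda, a ratio of 6.398 (5.34 to 7.71). Sqle had 15.0 against 1.01 CPM (14.9-fold, 8.65 to 27.7), Apoc1 155 against 29.1 (5.33-fold, 4.79 to 5.95), Abca1 498 against 137 (3.64-fold, 3.45 to 3.83) and Apoe a ratio of 2.44 (2.43 to 2.45). These 5 were called higher in the testis, where 17.7% of 8378 genes were, and 0 were called higher in the cauda, where 8.24% were. Abcg1 was 1.69-fold higher in the cauda (1.55 to 1.85), and Soat1 (1.64-fold, 1.53 to 1.76) and Scd1 (1.43-fold, 1.14 to 1.79) were higher in the testis, all under the rule. The median gene tested was 0.29 higher in the testis on the log2 scale.

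Leydig RNA in the testis barcodes moved with this result. The 5 markers of the Leydig gate had a summed level of 691 CPM in testis macrophage-like barcodes (5 of 5 detected), 1.15 CPM in KO cauda ones (5 of 5) and 0 in chimera ones (0 of 5). With the Leydig-like share set by Insl3 taken away, the ratios were 3.14 for Hmgcs1, 7.62 for Sqle and 2.70 for Apoc1. With the share set by Star they were 0.880 for Hmgcs1, 2.58 for Sqle at 2.601 CPM and 0.862 for Apoc1, and Scd1 became lower in the testis, at a ratio of 0.145. Apoe and Abca1 kept ratios of 2.52 to 2.58 and 3.50 to 3.56. Sqle was then under 10 CPM in both classes with either share, so that of the 5 calls those for Apoe and Abca1 alone stood under both shares. Of the synthesis list, 13 of 19 tested genes were higher in the testis and 0 in the cauda before this step, 7 of 14 with the Insl3 share and 1 of 9 with the Star share taken away. Of the fatty acid list, 3 of 7 were higher in the testis and 2 in the cauda before it, 2 and 2 of 7 with the Insl3 share, and 1 and 3 of 6 with the Star share taken away. Over all genes 1409 of 8304 were higher in the testis and 694 in the cauda with the Insl3 share taken away. With the Star share these were 1352 and 707 of 8239, a testis share that the synthesis list did not exceed. The KO cauda class carried epididymal markers instead, 7 of 7 with a summed level of 1215 CPM, and the part of these in the result was not tested. The 52 testis macrophage-like barcodes with no Leydig UMI held 178 CPM of Apoc1 (128 to 241) and 434 of Abca1 (353 to 528). Without the 19 shared barcodes the KO cauda levels were 10.1 CPM for Hmgcs1, 16216 for Apoe, 27.6 for Apoc1 and 137 for Abca1.

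The efflux list gave 4 genes higher in the testis (Abca1, Apoe, Apoc1 and Cyp27a1) and 2 in the cauda (Lpl and Apoc4) of 8 tested. Abca1, Apoe and Apoc1 are among the 8 genes described here. With the Leydig-like share set by Insl3 taken away these counts were again 4 and 2 of 8. With the Star share they were 3 and 2 of 8, and Apoc1, at a ratio of 0.862, was no longer called higher in the testis. The list median was then 0.07 on the log2 scale, against 0.25 over all genes. Lpl stood at 135 CPM in the testis and 545 in the cauda class, and Apoc4, of the same cluster as Apoe and Apoc1, at 2.72 and 25.03 CPM. The uptake list gave 1 gene higher in the testis, Npc1, and 2 in the cauda, among them the scavenger receptor Msr1, of 8 tested. Over all genes 17.7% were called higher in the testis and 8.24% in the cauda, and 1 or 2 of 8 is too few to set apart from these shares.

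The chimera and KO cauda macrophage-like classes differed in 1 gene upward. The chimera class held 193 CPM of Apoc1 (174 to 215) and the KO class 29.1 CPM (26.4 to 32.1), a level 6.64-fold higher (5.74 to 7.68), where 6.82% of 7949 genes were called. Its UMIs lay in 44.8% of chimera (32.6 to 57.4%) and 14.1% of KO barcodes (11.6 to 16.9%), and after thinning to 1000 UMIs in 12.3% and 1.59%. In the chimera class 7 of 67 barcodes held 78.7% of the 352 Apoc1 UMIs. Scd1 (4.397 against 10.2 CPM, 8 UMIs in the chimera) was 2.33-fold lower in the chimera (1.15 to 5.50) and Abcg1 (44.5 against 101) 2.27-fold lower (1.81 to 2.88), where 2% were called. Apoe was 1.58-fold lower in the chimera (1.55 to 1.602), and Soat1 1.44-fold higher (1.25 to 1.64). Under TMM scaling, which assumes that most genes are alike and shifted this contrast by -0.42 on the log2 scale, Apoe also passed 2-fold, with a log2 ratio of -1.08. The share of all genes called under that scaling is not given here.

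For these genes the shared barcodes can be read in both libraries. The 63 shared chimera macrophage-like barcodes held 194 CPM of Apoc1 (175 to 216) in the chimera file and 137 CPM (101 to 182, 47 UMIs) in the KO cauda file, whereas the 684 KO cauda macrophage-like barcodes that were not shared held 27.6 CPM (24.9 to 30.5). Abcg1 stood at 44.2 CPM (35.0 to 55.0) in the chimera file, 58.3 (35.6 to 90.1) for the same barcodes in the KO cauda file and 101 (96.0 to 107) in the unshared ones. Apoe gave 10220.2, 10754 and 16216 CPM in that order. Soat1 gave 140, 117 (83.4 to 159) and 98.0 CPM. Scd1 gave 4.42 CPM (8 UMIs), 20.4 CPM (8.21 to 42.1, 7 UMIs) and 10.1 CPM. For Apoc1, Apoe and Abcg1 the same barcodes lay nearer to each other across the 2 files than to the rest of the KO cauda class. Scd1, also called in this comparison, did not follow that order: the same barcodes were higher in the KO cauda file than the unshared ones. With barcodes that also pass the epididymal gate kept, the KO cauda Apoc1 level was 46.2 CPM over 1034 barcodes. Epididymal markers summed to 175 CPM in chimera macrophage-like barcodes (6 of 7, Epcam at 0) against 1215 CPM in KO cauda ones, and the median gene was 0.28 higher in the chimera on the log2 scale. From which animal the shared barcodes came cannot be told apart in these files, so the contrast is one between sets of barcodes and is not assigned to complementation.

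**Figure D4:**
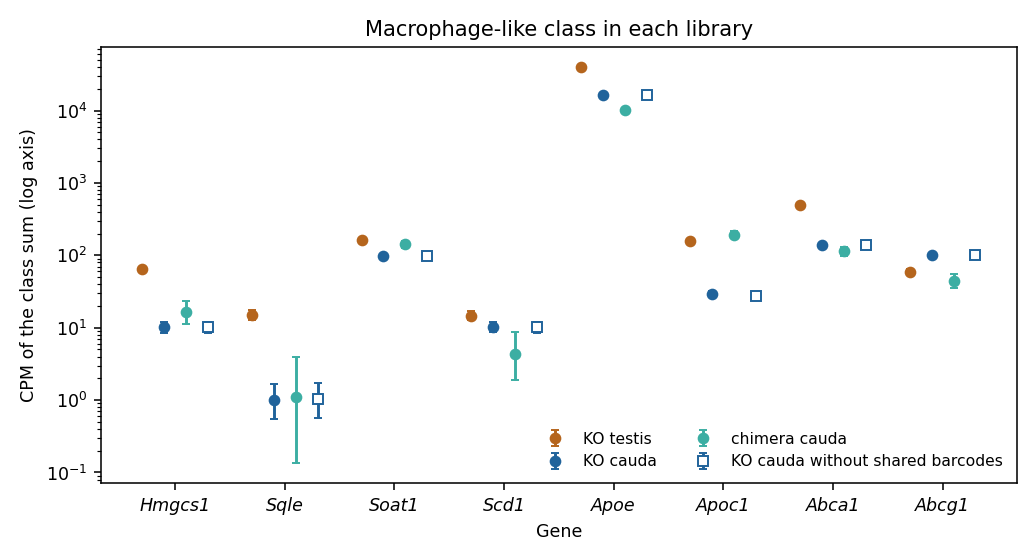
CPM (log axis) of the 8 genes in the macrophage-like class of each library, with the KO cauda again without the barcodes shared with the chimera cauda (open squares); bars are exact Poisson 95% intervals. Before any Leydig RNA is taken away, the testis class is highest for Hmgcs1, Sqle, Scd1, Apoe and Abca1. It is also highest for Soat1, where its interval overlaps that of the chimera. Apoc1 is 6.64-fold higher in the chimera than in the KO cauda.

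B lymphocytes served as cauda cells not known for secreting apolipoproteins. In the KO cauda, Apoe was 38.9-fold higher in macrophage-like than in B lymphocyte-like barcodes (37.8 to 40.0), Apoc1 29.3-fold (16.6 to 57.1), Soat1 3.77-fold (3.33 to 4.27) and Abca1 2.87-fold (2.61 to 3.15). Scd1 was 48.4-fold higher in B lymphocyte-like barcodes (41.0 to 57.6). So 4 of the 8 genes were called for macrophages, where 21.3% of 8108 genes were, and 1 for B lymphocytes, where 13.7% were. Hmgcs1 did not separate the classes (10.2 and 11.04 CPM, ratio 0.922, 0.722 to 1.18), and Abcg1 was 1.85-fold higher in macrophages (1.68 to 2.03). Sqle stayed under 10 CPM in both. Without the shared barcodes 4 genes were again called for macrophages and 1 for B lymphocytes, with log2 ratios of 5.28 for Apoe and -5.62 for Scd1. All 8 uptake genes tested and 7 of 8 efflux genes were higher in macrophage-like barcodes, with median log2 ratios of 3.85 and 5.08 against 0.01 over all genes. Apoe, Apoc1 and Abca1, given above, are among these efflux genes. Of 8 synthesis genes tested, 1 was higher in macrophage-like barcodes and 0 in B lymphocyte-like ones. Srebf2 was higher in B lymphocyte-like barcodes, at 80.3 against 14.6 CPM. The Apoe level of B lymphocyte-like barcodes was 2.57% of the macrophage-like one, against 0.412 to 0.554% for the macrophage markers. Lyz2 and Pf4, the markers outside the macrophage gate, stood at 0.546 and 0.412%.

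Between the cauda libraries, B lymphocyte-like barcodes differed by the rule in Abca1 alone, which was 2.12-fold lower in the chimera (1.35 to 3.55, 19 UMIs), where 1.43% of 7619 genes were called. Summed epididymal markers reached 123 CPM in chimera and 1361 CPM in KO B lymphocyte-like barcodes. In the other direction 0 of the 8 were called against 6.62% of genes. Under TMM scaling, which shifted this contrast by -0.48 on the log2 scale, Scd1, Apoe and Abcg1 also passed 2-fold, lower in the chimera. Their log2 ratios before that shift were -0.54, -0.90 and -0.67. The share of all genes called under TMM scaling is not given here, so these 3 are not set against a background. The chimera B class held 49 shared barcodes of 50. Without the shared barcodes the KO cauda B level of Abca1 was 48.1 CPM (44.2 to 52.2), and the 49 shared ones held 22.7 CPM (19 UMIs) in the chimera file and 18.8 CPM (3 UMIs) in the KO cauda file.

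Within classes, Leydig-like barcodes were split by their mitochondrial share of UMIs, with the 660 barcodes above 20% added, and levels taken per 1000000 non-mitochondrial UMIs. Abca1 stood at 773 (760 to 785) up to 10%, 971 (960 to 982) from 10 to 20% and 1718 (1670 to 1767) above 20%. Soat1 ran in the same order at 381, 437 and 581, and so did Hmgcs1 (1009, 1179, 1267), Scd1 (236, 275, 317) and Sqle (237, 254, 303). Apoc1 did not, at 2485, 2658 and 2124, nor Apoe at 2759, 2267 and 2652. The Leydig hormone gene Insl3 stood at 5126, 5135 and 4273, and Cyp11a1 stood at 3573, 4700 and 5468. The median depth was 14112, 15180 and 5266 UMIs, and its part in these differences was not tested.

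**Figure D5:**
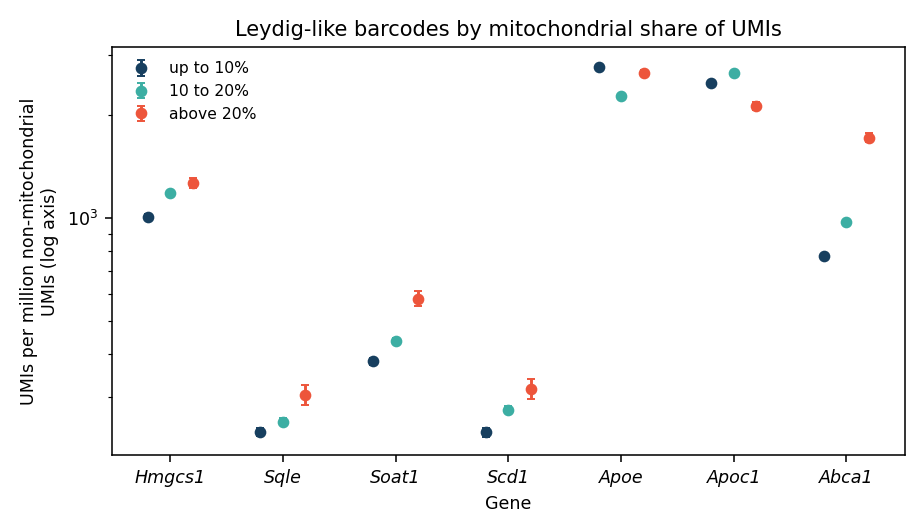
Level of 7 genes in Leydig-like barcodes of the KO testis, per 1000000 non-mitochondrial UMIs (log axis), for barcodes with up to 10%, 10 to 20% and above 20% mitochondrial UMIs; bars are exact Poisson 95% intervals. Abca1 shows the widest steps, from 773 to 1718.

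Macrophage-like barcodes were also split at the median of the share of MHC class II UMIs (H2-Aa, H2-Ab1, H2-Eb1 and Cd74), a range and not a type. In the testis the median was 0, so the split set 1061 barcodes with any such UMI against 1128 without. Abca1 was 1.26-fold higher in those without (1.20 to 1.32), Soat1 1.18-fold (1.08 to 1.29), and Scd1 1.39-fold higher in those with (1.03 to 1.89). In the KO cauda Abca1 was 1.20-fold higher in the barcodes below the cut (1.10 to 1.32) and Apoe 1.10-fold (1.09 to 1.11). By the 2-fold rule 0 of the 8 genes were called in any direction, against 1.16% and 0.282% of genes in the testis (upper and lower) and 0.23% and 0.406% in the KO cauda.

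Genes most like each of the 8 over the 15 class sums, by Pearson's r of log2(CPM + 1) among 9209 genes with 50 CPM or more in some class, are given as a description of sums that share libraries and free RNA. Hmgcs1 was nearest to Uqcr10 (0.96), Hacd3 (0.96) and Cyp51 (0.96), and Sqle to Fdps (0.91), Aars (0.87) and Rhbg (0.84). Soat1 lay nearest to Hsd17b4 (0.95), Slc25a1 (0.95) and Got1 (0.94), and Scd1 to Echdc3 (0.84), Ly6d (0.84) and Rabep2 (0.83). Apoe lay nearest to Fcgrt (0.91) and Cebpa (0.89), and Apoc1 to Wipi1 (0.96), Slc7a8 (0.96) and Tspan8 (0.95). Abca1 lay nearest to Cnpy2 (0.95), 4931406C07Rik (0.95) and Cstb (0.94), and Abcg1 to Rps6ka1 (0.96), Fli1 (0.94) and Tspan13 (0.91). Among the 8 themselves, the highest correlation was between Soat1 and Abca1 (0.87), followed by Apoc1 and Abca1 (0.82). Apoe and Apoc1 correlated at 0.44, Abca1 and Abcg1 at 0.19, and Sqle and Abcg1 at -0.62.

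Summed over whole libraries, the KO testis held 560 CPM of Hmgcs1, 1236 of Apoc1 and 567 of Abca1, against 14.0, 24.6 and 97.6 in the KO cauda. Whole sums mix cell types, so that fewer cells of a type and less RNA per cell cannot be told apart in them. Apoe was nearly level at 6332 CPM in the KO testis, 7521 in the KO cauda and 8064 in the chimera cauda. Over all barcodes, Apoc1 was 4.51-fold higher in the chimera than in the KO cauda (4.07 to 4.99) and Scd1 2.06-fold lower (1.90 to 2.24), where 9.57% and 1.88% of 8743 genes were called in these directions. Without the 125 shared barcodes in the KO cauda, these ratios were 5.08 for Apoc1 (4.58 to 5.64) and 2.07 for Scd1 (1.91 to 2.25). Over barcodes with 500 UMIs or more the ratios of Apoc1 and Scd1 were 4.92 and 2.09, where 7.58% and 2.68% of 8509 genes were called.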

How the data were processed

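The authors deposited raw UMI counts per gene and barcode, whole numbers with no normalization, in 1 matrix for each library. Cell Ranger 6 and Seurat 4.2.1 are named, with the build GRCm38.p6, per the submitters' processing notes. Cell Ranger 6.1.2 wrote both KO matrices and version 4 that of the chimera, per the file headers. Samples were grouped by title. A barcode passed a class's gate when at least 3 of its markers held at least 5 UMIs together, with a share of its UMIs at least 0.5 times their share in the whole library. A barcode past exactly 1 of 15 gates took that class.

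The 8 genes, the gates and the lists were chosen with earlier results of these data known. UMIs were summed per class and given as CPM with exact Poisson intervals, shares with exact (Clopper-Pearson) intervals and ratios with exact conditional binomial intervals, all at 95%. Genes were called at 2-fold and 10 CPM. Besides the 8, the text names the 4 genes of each list with most UMIs and the 3 most alike to each gene; genes named beyond these were picked with their values in view. Some genes that these rules name are not reported here. The calling rule was tried on simulated Poisson counts with 4-fold changes. These hold no spread between barcodes or animals, no free RNA and no shared barcodes, so they cover counting error alone. No doublet caller was run; barcodes past more than 1 gate were left out. Python 3.11.15 and edgeR 4.0.16 (TMM only) were used. Positions come from GENCODE M21.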

Additional observations from a re-analysis of the deposited data

Results flagged for a closer look

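Barcodes under 500 UMIs in the chimera cauda entered no comparison of classes, yet they held apolipoprotein transcripts above the level of the KO cauda library. Apoe stood at 9741 CPM there (9618 to 9865) against 7521 CPM in the KO cauda, and Apoc1 at 99.0 CPM (87.0 to 112) against 24.6 CPM. Most of these UMIs lay in the 210469 barcodes that are not in the KO cauda file, where Apoe held 10005 CPM, Apoc1 107 CPM, the macrophage gene C1qa 1035 CPM and the sperm gene Prm2 9393 CPM. In the 3812 such barcodes that are in the KO cauda file, Apoe held 8252 CPM, Apoc1 51.4 CPM (19 UMIs), C1qa 1190 CPM and Prm2 436 CPM. The source of these transcripts was not tested.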

How the results depend on the processing

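Over 282 recomputed values of the 21 ratios called at 2-fold, 280 kept their direction and 278 also stayed at 2-fold or more. Staying at 2-fold is not staying called, which also needs 10 CPM in the higher class. The 2 that turned were Hmgcs1 (log2 ratio -0.19) and Apoc1 (-0.21) in testis against KO cauda macrophage-like barcodes, with the Leydig-like share set by Star taken away, an alternative chosen after seeing the data. That step left 3 of the 8 genes called in this comparison, 2 higher in the testis and 1 in the cauda. Over all 8239 genes tested after it, 1352 and 707 were called in these directions. At 4-fold in place of 2-fold, 6 genes were called between Leydig-like and macrophage-like barcodes in place of 7, 4 of them higher in Leydig-like ones without Soat1, 3 were called between testis and KO cauda macrophages, all 3 higher in the testis, 1 between chimera and KO cauda macrophages with 0 higher in the KO cauda, 3 between macrophages and B lymphocytes with 2 higher in macrophages, and 0 between the B lymphocyte-like classes with 0 higher in the KO cauda. Between chimera and KO cauda macrophages, 1 gene in place of 2 was higher in the KO cauda with the gate at 0.25 times the library share, with macrophages gated on Csf1r, Adgre1 and Cd68, and with the mean of each barcode. Without the CPM filter 2 genes were higher in B lymphocytes than in macrophages. Between the B lymphocyte-like classes, TMM scaling called 4 genes, 4 of them higher in the KO cauda, the mean of each barcode called 3, with 1 higher in the chimera and 2 in the KO cauda, and keeping barcodes past the epididymal gate called 2, 2 of them higher in the KO cauda. The cause was not tested. For the settings from the 4-fold rule onward, the share of all genes called is not given here. Their counts describe how the calls moved and are not set against a background. Gene and class pairs with a UMI in over 50% of barcodes numbered 43, and 11 after thinning to 1000 UMIs, by which each barcode holds fewer UMIs. TMM scaling shifted the 5 comparisons by 0.08, -0.22, -0.42, 0.005 and -0.48 on the log2 scale, in the order Leydig against macrophage, testis against KO cauda, chimera against KO cauda macrophages, macrophage against B lymphocyte, and chimera against KO cauda B lymphocytes. No paired analysis was possible because each group is 1 library, and for the same reason no replicate could be left out. Depth limits Sqle and Scd1 in cauda macrophages, where the chimera held 2 and 8 UMIs. The Scd1 call between these classes rested on 10.2 CPM in the KO cauda, just above the 10 CPM limit.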
